A study of Ovis aries with 2 samples.

Results

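NKAIN2, NCKAP5 and MAGI2 were followed across the cell classes of adult sheep cerebral cortex, as 3 of the 12652 gene symbols (13765 features) listed in the count tables. They were chosen by their share of UMIs: they took the largest shares of all UMIs (unique molecular identifiers, each standing for 1 captured RNA molecule) in the library of processed tissue, so the values of that ranking are a description and no test bears on them. In that library, over its 494 nuclei with at least 100 detected genes, NKAIN2 took 1.02% of UMIs, NCKAP5 0.824% and MAGI2 0.712%, and the next genes, SLC24A2 and TMCC3, took 0.583% each. In the library of unprocessed tissue the same genes ranked lower, with NKAIN2 at 0.563% (rank 13), MAGI2 at 0.421% (rank 19) and NCKAP5 at 0.251% (rank 39).

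The study isolated nuclei from the cortex of 1 wildtype adult female Rambouillet sheep (18 to 36 months), untreated in life, and sequenced 3′ RNA of single nuclei in 2 libraries of the same labelled batch. For the pre-processed library nuclei came straight from dissected cortex, and for the post-processed library debris and red blood cells were first removed, as the titles and the series description state. The treatment field of the post-processed library instead says that no such removal took place, so the direction of every comparison here rests on the titles. Each condition had 1 library and no replicate, so no difference between libraries was tested and every interval below is a 95% interval that covers counting error only.

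NKAIN2 encodes a small membrane protein of a family named for its interaction with the sodium pump, the Na+/K+-ATPase that restores ion gradients in neurons and glia. NCKAP5 is named for its association with NCK, an adaptor that links receptors to actin assembly. MAGI2 is a scaffold of the membrane-associated guanylate kinase family, which gathers receptors and adhesion proteins at synapses and other cell junctions. In nuclear RNA much of the signal of long genes comes from unspliced transcripts, and levels are therefore compared here between cell classes for each gene. Where UMIs of a pair of genes are set against each other, the ratio is compared between classes and is not read as a difference in level between the genes.

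About 5000 nuclei per condition were stated, and the deposited tables held 2125 pre-processed barcodes (9580441 UMIs, median 2524 per barcode) and 905 post-processed barcodes (794203 UMIs, median 146), with 0 barcodes shared. A minimum of 100 detected genes was met by all pre-processed barcodes and by 494 of the post-processed ones, which were kept as nuclei. Joint clustering gave 986 neuron-like nuclei before processing and 0 after, 357 and 2 astrocyte-like, 109 and 0 oligodendrocyte precursor-like, 179 and 57 oligodendrocyte-like, and 86 and 406 microglia-like nuclei. Of the markers fixed for these classes, 7 of 20 for oligodendrocytes and 11 of 19 for microglia were among the listed genes. The summed oligodendrocyte markers reached 7064 CPM (UMIs of a gene per 1000000 UMIs of the listed genes) in oligodendrocyte-like nuclei before processing and 8046 CPM after it, against 192 CPM in neuron-like nuclei. Clusters 2 (334 pre-processed nuclei), 10 (66) and 13 (8 and 29) stayed unnamed. Cluster 2 came closest to astrocytes by its markers but held 6214 CPM of SYT1, a synaptic vesicle gene of neurons; cluster 10 came closest to neurons and cluster 13 to endothelial cells.

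Oligodendrocytes build the myelin around axons. Oligodendrocyte-like nuclei held the highest level of all 3 genes in both libraries. NKAIN2 stood at 19371 CPM (18875 to 19877) in the 179 pre-processed nuclei and at 22779 CPM (21993 to 23586) in the 57 post-processed nuclei. NCKAP5 stood at 20703 CPM (20190 to 21226) and 22808 CPM (22021 to 23615). MAGI2 stood at 15588 CPM (15142 to 16042) and 19065 CPM (18347 to 19805). All 179 and all 57 of these nuclei held at least 1 UMI of each of the 3 genes. Per nucleus, NKAIN2 made up between 3.19 and 35.9 of every 1000 UMIs before processing (median 18.4) and between 5.62 and 43.3 after it (median 21.8). NCKAP5 ranged from 2.89 to 68.8 per 1000 UMIs before processing (median 19.3) and from 4.89 to 49.8 after it (median 18.9). MAGI2 ranged from 1.95 to 37.3 (median 14.9) and from 4.48 to 32.3 (median 17.7). The ranges of the libraries overlapped for each gene, and NCKAP5 and MAGI2 reached further at both ends before processing.

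**Figure D1:**
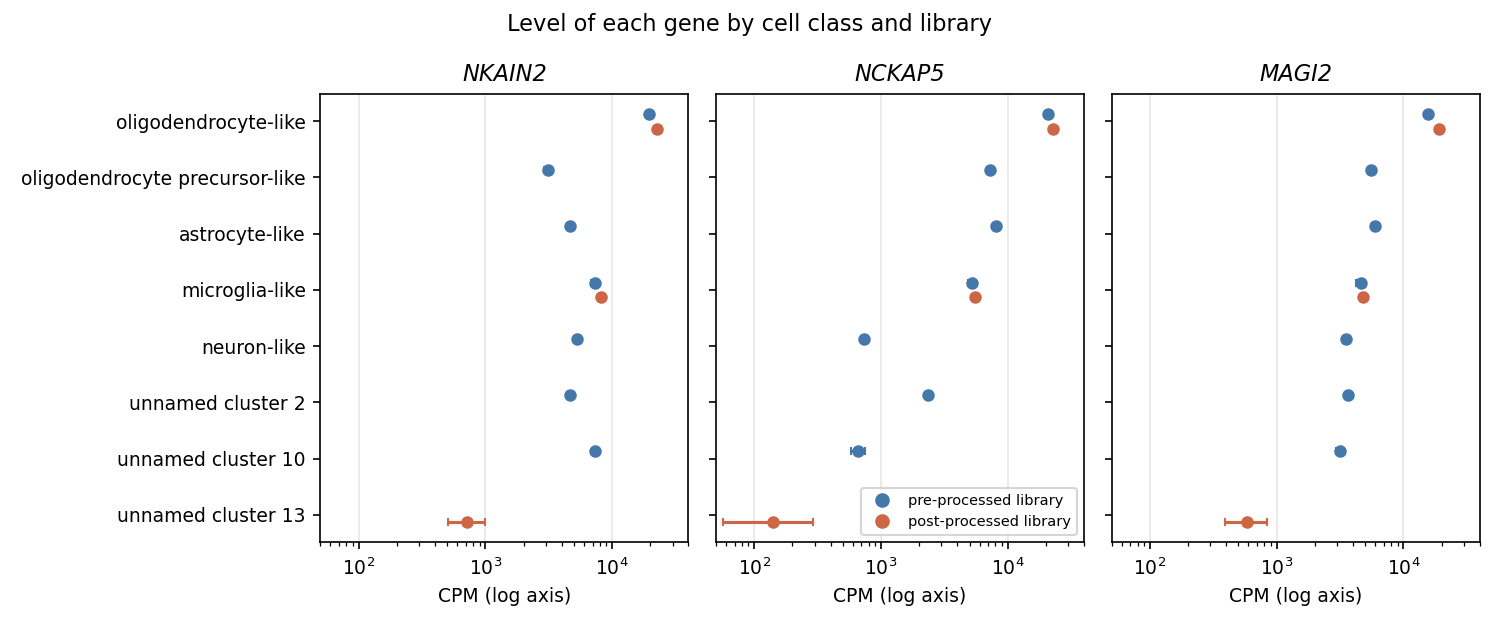
Level of NKAIN2, NCKAP5 and MAGI2 in CPM (log axis) for each cell class or unnamed cluster with at least 20 nuclei in a library; points are sums over nuclei and bars exact Poisson 95% intervals, hidden by the point where narrow. Oligodendrocyte-like nuclei lie furthest right in all 3 panels, while the lowest named class is oligodendrocyte precursor-like for NKAIN2 and neuron-like for NCKAP5 and MAGI2. The microglia-like points include 27 nuclei per library with both oligodendrocyte and microglial markers.

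The classes below the oligodendrocyte-like nuclei were ordered differently for each gene. For NKAIN2 they ran from microglia-like nuclei (8160 CPM after and 7268 before processing) and cluster 10 (7321) through neuron-like (5250), cluster 2 (4679) and astrocyte-like nuclei (4662) to oligodendrocyte precursor-like nuclei (3098). In that order the intervals of cluster 10 and pre-processed microglia-like nuclei overlapped, as did those of cluster 2 and astrocyte-like nuclei. For NCKAP5 the order was astrocyte-like (8070), oligodendrocyte precursor-like (7277), microglia-like (5476 after and 5255 before processing), cluster 2 (2335), neuron-like (730) and cluster 10 (657), and neither the microglia-like values nor the last pair were separated by their intervals. For MAGI2 it was astrocyte-like (5926), oligodendrocyte precursor-like (5556), microglia-like (4834 and 4599), cluster 2 (3680), neuron-like (3503) and cluster 10 (3135), with overlapping intervals within each of the pairs astrocyte-like and precursor-like, the microglia-like values, and cluster 2 and neuron-like. The place of microglia-like nuclei in these orders depended on 27 nuclei per library with both oligodendrocyte and microglial markers. Without them NKAIN2 stood at 3229 CPM before and 4988 CPM after processing, both below the neuron-like value. NCKAP5 then stood at 786 and 2082 CPM, and MAGI2 at 980 and 1865 CPM, all below cluster 2. The 29 post-processed nuclei of cluster 13 had 723 CPM of NKAIN2, 141 CPM of NCKAP5 (7 UMIs) and 582 CPM of MAGI2. Classes were formed from all genes of the same nuclei, NCKAP5 among the 2000 variable genes used, so these differences between classes describe the classes and test nothing.

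NCKAP5 separated oligodendrocyte-like and astrocyte-like nuclei from neuron-like nuclei by far more than NKAIN2 and MAGI2 did. In the pre-processed library the level in oligodendrocyte-like over neuron-like nuclei was 1.88 for NKAIN2, 4.83 for NCKAP5 and 2.15 for MAGI2 on the log2 scale. All 3 genes were thus at least 2-fold higher, as were 23.9% of the 6838 genes compared. Astrocyte-like over neuron-like nuclei gave -0.17 for NKAIN2, 3.47 for NCKAP5 and 0.76 for MAGI2, so NKAIN2 was slightly lower in astrocyte-like nuclei. Against the other glia, oligodendrocyte-like nuclei were higher by 2.05 (NKAIN2), 1.36 (NCKAP5) and 1.40 (MAGI2) over astrocyte-like nuclei. Over oligodendrocyte precursor-like nuclei, the progenitors of the lineage, the values were 2.64, 1.51 and 1.49.

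The mix of the 3 genes also differed between classes. Neuron-like nuclei held 7.19 UMIs of NKAIN2 for each UMI of NCKAP5 (6.98 to 7.41). Oligodendrocyte-like nuclei held 0.936 (0.903 to 0.97) before and 0.999 (0.95 to 1.05) after processing. Astrocyte-like nuclei held 0.578 (0.558 to 0.598), and oligodendrocyte precursor-like nuclei 0.426 (0.393 to 0.461). The genes therefore did not keep a single ratio across classes.

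Which cells held the UMIs depended on the number and depth of nuclei in each class as well as on level. In the pre-processed library neuron-like nuclei held 71.5% of all UMIs, 66.7% of those of NKAIN2 and 59.5% of those of MAGI2, but 20.8% of those of NCKAP5. Astrocyte-like nuclei held 35.4% of NCKAP5 UMIs, oligodendrocyte-like nuclei 25.7% and oligodendrocyte precursor-like nuclei 8.71%, against 11%, 3.11% and 3.0% of all UMIs. Oligodendrocyte-like nuclei also held 10.7% of NKAIN2 and 11.5% of MAGI2 UMIs. Microglia-like nuclei held between 1.51% (MAGI2) and 2.90% (NCKAP5) of each gene, against 1.38% of all UMIs. In the post-processed library no nucleus was neuron-like, and almost all UMIs of the 3 genes were split between 2 classes. Oligodendrocyte-like nuclei held 40.6% of NKAIN2, 50.3% of NCKAP5 and 48.7% of MAGI2 UMIs, against 18.2% of all UMIs. Microglia-like nuclei held 58.8%, 48.9% and 50%, against 73.7% of all UMIs. The microglia-like share depended on how nuclei were assigned. It included 27 nuclei with both oligodendrocyte and microglial markers, which a finer clustering set apart. Those nuclei held 34.1% of NKAIN2, 36.1% of NCKAP5 and 36.7% of MAGI2 UMIs of the library.

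**Figure D2:**
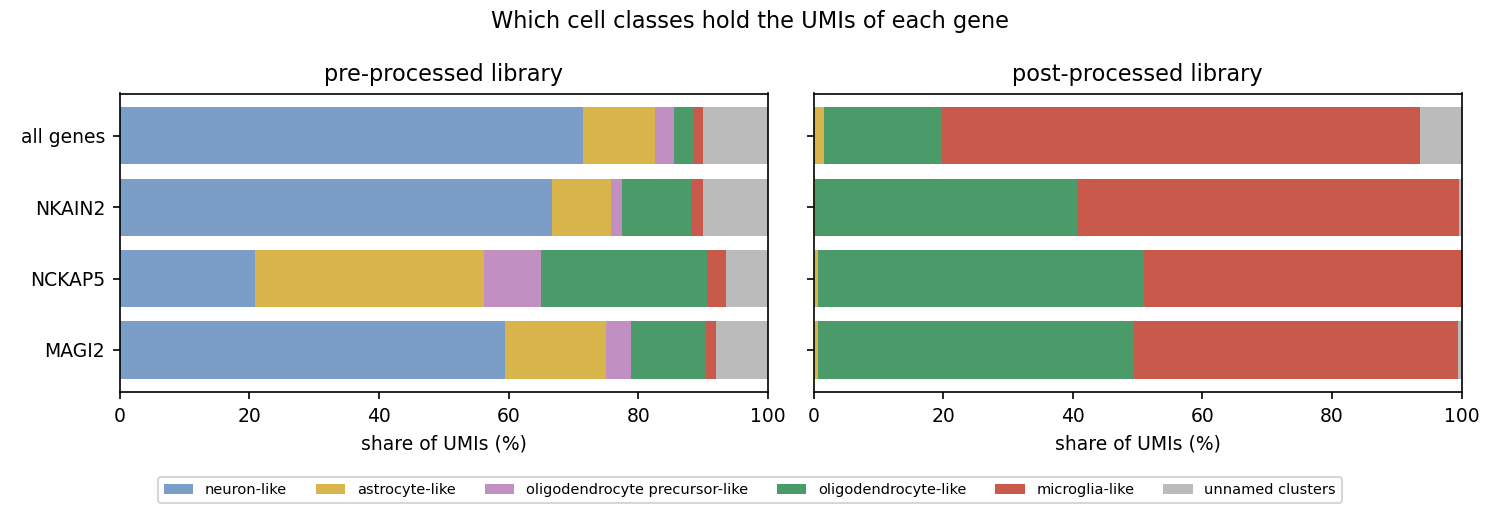
Share (%) of the UMIs of all genes and of each of the 3 genes held by each cell class, in the pre-processed (left) and post-processed (right) library, with unnamed clusters in grey. NCKAP5 is mostly glial already before processing, with 20.8% in neuron-like nuclei, whereas NKAIN2 and MAGI2 pass from mostly neuron-like nuclei to oligodendrocyte-like and microglia-like nuclei. The post-processed microglia-like share includes 27 nuclei with both oligodendrocyte and microglial markers.

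All 3 genes differed in level between the neuronal clusters of the pre-processed library. The 45 nuclei led by NTNG1 and ESR2 (cluster 12) had the highest neuronal level of NKAIN2, 11110 CPM (10830 to 11396), and the lowest of NCKAP5, 367 CPM (317 to 422), with 30.3 NKAIN2 UMIs for each of NCKAP5. The 46 nuclei led by LAMB1 and LEPR (cluster 11) followed for NKAIN2 with 8655 CPM. These were also the deepest neuronal clusters, with medians of 11419 and 16117 UMIs per nucleus against 2501 to 6161 in the other 4 neuron-like clusters; the part of depth in the result was not tested. NKAIN2 was lowest, at 3652 CPM (3501 to 3808), in the 93 nuclei marked by the interneuron genes SST and LHX6 (cluster 9), and MAGI2 was highest there, at 5465 CPM (5280 to 5654), against 3038 to 3948 CPM in the other neuron-like clusters. NCKAP5 reached its highest neuronal level, 1093 CPM (1011 to 1180), in the 100 nuclei marked by RELN and CNR1 (cluster 8). This was still below the level of every named glial class taken whole. It was above the 587 CPM (before processing) and 242 CPM (after) of microglia-like nuclei with at least 500 UMIs and no oligodendrocyte marker UMI.

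**Figure D3:**
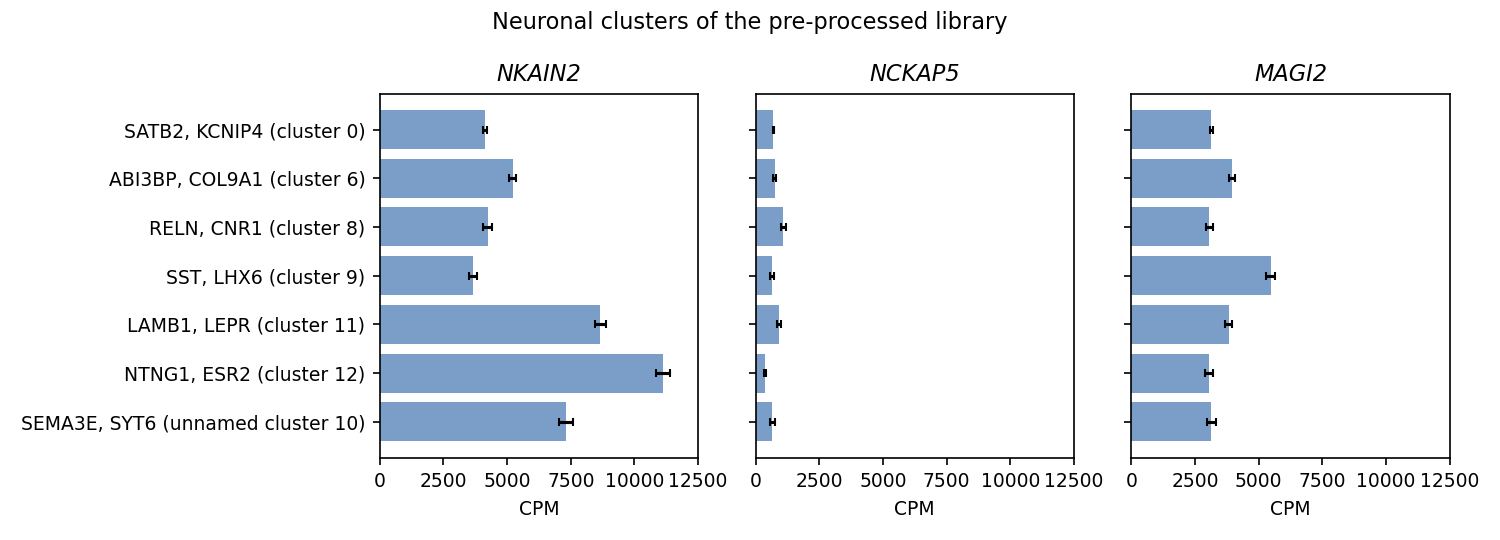
Level (CPM, linear axis from 0) of each gene in the 6 neuron-like clusters and in unnamed cluster 10 of the pre-processed library, named by leading or marker genes; bars are sums over nuclei with exact Poisson 95% intervals. NKAIN2 is highest in cluster 12, where NCKAP5 is lowest, and MAGI2 is highest in cluster 9.

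Microglia are the resident immune cells of the brain, and the microglia-like class was not uniform for these genes. Per nucleus, NKAIN2 made up from 0 to 26.2 of every 1000 UMIs before processing (median 3.96) and from 0 to 48.5 after it (median 4.21). NCKAP5 had a median of 0.920 per 1000 before and 0 after processing, with maxima of 23.9 and 42.6, and MAGI2 medians of 1.03 and 0, with maxima of 17.5 and 41.4. All 3 genes were found together in 48 of 86 pre-processed and 110 of 406 post-processed microglia-like nuclei, and in 55 post-processed nuclei none of them was found.

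Nuclei with oligodendrocyte marker UMIs carried most of this signal. The 203 post-processed microglia-like nuclei with at least 500 UMIs were divided by how many of their UMIs belonged to the 7 oligodendrocyte markers. In the 85 nuclei with none, NKAIN2 stood at 3194 CPM (2852 to 3566), NCKAP5 at 242 CPM (155 to 360) and MAGI2 at 302 CPM (204 to 432). In the 61 nuclei with up to 2 marker UMIs per 1000, the levels were 4735, 872 and 1044 CPM. In the 57 nuclei with more, they were 12470, 10231 and 8975 CPM. Summed microglial markers were 15225, 15624 and 8735 CPM in the same order. All 3 genes were thus higher in each group than in the one before, NCKAP5 and MAGI2 by larger factors than NKAIN2. Median depth rose in the same order, at 961, 1827 and 3691 UMIs per nucleus, and its part in these levels was not tested.

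The pre-processed library gave the same order in 25, 37 and 24 nuclei, with NKAIN2 at 2556, 4415 and 12307 CPM, NCKAP5 at 587, 2841 and 9878 CPM, and MAGI2 at 898, 1839 and 9020 CPM. Median depths of these groups were 1116, 1204 and 2307.5 UMIs per nucleus. Across the microglia-like nuclei, the rank correlation of each gene with the oligodendrocyte markers was 0.59 to 0.65 before processing (86 nuclei) and 0.48 to 0.64 after it (203 nuclei), while with the microglial markers it was -0.58 to -0.47 and -0.41 to -0.28. These values describe nuclei of 1 library each, share the nucleus total as divisor and carry no p-value. Within oligodendrocyte-like nuclei the correlations with the oligodendrocyte markers lay between -0.15 and 0.08.

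**Figure D4:**
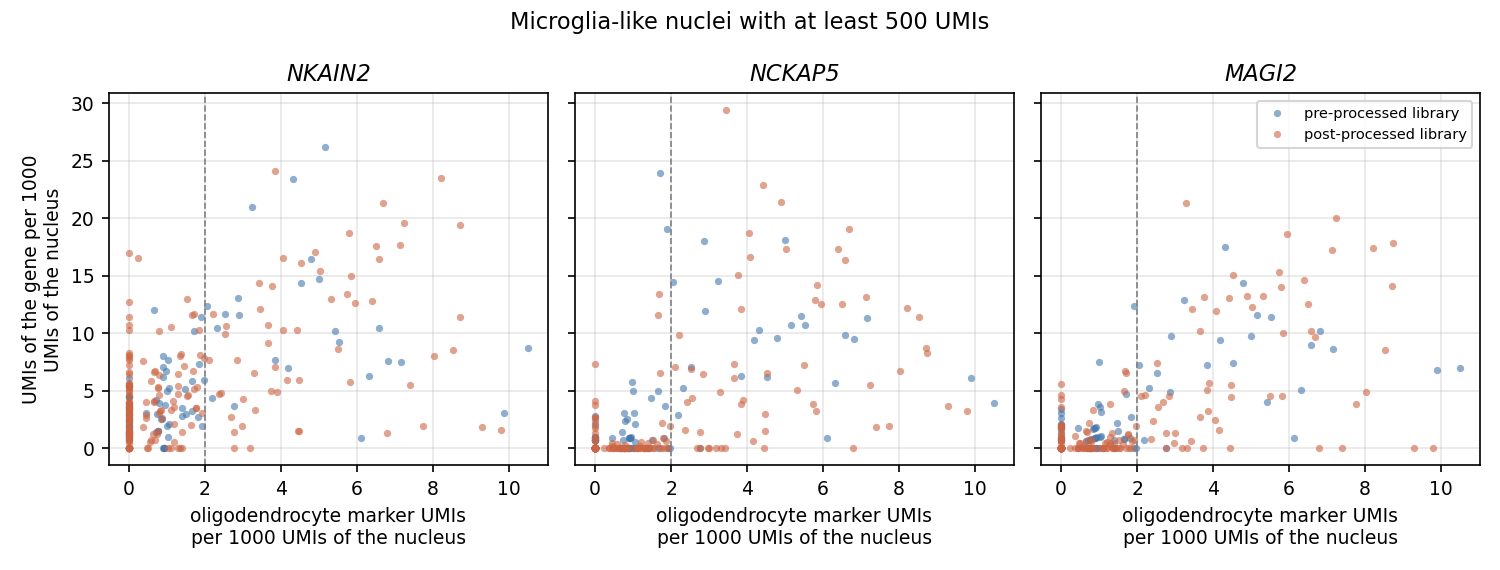
Each point is 1 microglia-like nucleus with at least 500 UMIs (86 pre-processed, 203 post-processed), with oligodendrocyte marker UMIs per 1000 UMIs on the x axis and UMIs of the gene per 1000 on the y axis; the dashed line marks 2 marker UMIs per 1000. NCKAP5 and MAGI2 lie near 0 at the left edge, whereas NKAIN2 is already present there, at 3194 CPM in the 85 post-processed nuclei with no marker UMI.

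The ratio of NKAIN2 to NCKAP5 UMIs was higher in microglia-like nuclei without oligodendrocyte marker UMIs than in oligodendrocyte-like nuclei. It was 13.2 after processing (8.72 to 20.9) and 4.35 before it (2.54 to 7.87), against 0.999 and 0.936 in oligodendrocyte-like nuclei. The post-processed nuclei of this kind held 2318 CPM of the 16 listed neuron markers in sum, of which SYT1 gave 0 UMIs, against 14064 CPM in neuron-like nuclei. The pre-processed ones held 5285 CPM of the neuron markers, 1416 CPM of it SYT1. The part of neuronal RNA in these NKAIN2 levels was not tested.

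Finer clustering (resolution 1.0 in place of 0.5) set apart 27 nuclei in each library that held both marker sets. They had 4471 CPM of oligodendrocyte and 7446 CPM of microglial markers before processing, and 5529 and 6799 CPM after it. NKAIN2 reached 12133 and 15169 CPM in them, NCKAP5 10637 and 12976 CPM, and MAGI2 8959 and 11394 CPM, between the levels of microglia-like and oligodendrocyte-like nuclei. The 27 post-processed nuclei alone held 34.1% of NKAIN2, 36.1% of NCKAP5 and 36.7% of MAGI2 UMIs of that library, against 23.0% of all its UMIs. Their median depth was 5041 UMIs, against 667.5 over all post-processed nuclei. Whether such a barcode held 1 nucleus or 2 was not tested: the doublet caller marked 4 of 2125 pre-processed and 0 of 494 post-processed nuclei, too few to count as having worked. The microglia-like nuclei that remained had 3229 and 4988 CPM of NKAIN2, 786 and 2082 CPM of NCKAP5, and 980 and 1865 CPM of MAGI2.

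Astrocyte-like nuclei differed from microglia-like nuclei in this respect. In the 195 pre-processed astrocyte-like nuclei with no oligodendrocyte marker UMI, NCKAP5 stood at 7182 CPM (6947 to 7422) and MAGI2 at 5469 CPM (5265 to 5680), close to the 8070 and 5926 CPM of the whole class. NKAIN2 stood at 3570 CPM there. In the 42 astrocyte-like nuclei with more than 2 marker UMIs per 1000, the levels were 10360 CPM for NKAIN2, 13623 CPM for NCKAP5 and 9521 CPM for MAGI2.

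Depth differed between classes and libraries, so detection was also compared with every nucleus thinned to 200 UMIs. NKAIN2 was then found in 95% of pre-processed and 98.2% of post-processed oligodendrocyte-like nuclei, NCKAP5 in 95% and 93%, and MAGI2 in 91.6% and 93%. In neuron-like nuclei the shares were 53.9%, 11.2% and 44.9%, against 98.3%, 74.8% and 98.8% without thinning at a median of 5086.5 UMIs. Astrocyte-like nuclei gave 51.5%, 72.5% and 64.4%, and oligodendrocyte precursor-like nuclei 30.3%, 64.2% and 67.9%. Microglia-like nuclei gave 46.5%, 38.4% and 36.0% before processing, and 54.6%, 31.9% and 29.0% after it, when 89 of 406 nuclei were too shallow to enter; unthinned, the post-processed shares were 75.4%, 44.1% and 44.6% at a median of 499.5 UMIs. The lowest shares were in post-processed cluster 13 (median 1786 UMIs), with 24.1% for NKAIN2, 13.8% for MAGI2 and 0 of 29 nuclei for NCKAP5. The exact interval for that count of 0 reaches 11.9% of nuclei at the thinned depth, and unthinned, 4 of the 29 held NCKAP5.

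Over all nuclei, the CPM of the post-processed over the pre-processed library was higher by 0.86 (0.83 to 0.89) for NKAIN2, 1.72 (1.68 to 1.76) for NCKAP5 and 0.76 (0.71 to 0.80) for MAGI2 on the log2 scale. The genes were picked by their UMI share in the post-processed library, the upper side of this ratio, so nothing is read from it. Of the 3, only NCKAP5 was at least 2-fold higher, as were 30.4% of 7614 genes. With the median gene ratio as the scale, which shifts every value by 0.66, the members stood at 0.20, 1.05 and 0.09.

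Within classes the libraries were much closer. In oligodendrocyte-like nuclei the log2 ratio was 0.23 (0.17 to 0.30) for NKAIN2, 0.14 (0.08 to 0.20) for NCKAP5 and 0.29 (0.22 to 0.36) for MAGI2. None of the 3 was 2-fold higher, against 4.42% of 2942 genes. In microglia-like nuclei it was 0.17 (0.07 to 0.27), 0.06 (-0.06 to 0.18) and 0.07 (-0.06 to 0.20), again with none 2-fold higher against 11% of 4264 genes. The microglia-like class had another mix of clusters in each library. Cluster 3 held 85 of the 86 pre-processed and 180 of the 406 post-processed nuclei. Cluster 5 held 226 of the post-processed ones, at a median of 230 UMIs. After processing, cluster 3 still gave 494564 of the 563734 UMIs of the class and 4209 of its 4600 NKAIN2 UMIs.

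These within-class ratios depended on how nuclei were assigned. With the nuclei of both marker sets in a cluster of their own, the microglia-like ratios were 0.62 for NKAIN2, 1.39 for NCKAP5 and 0.92 for MAGI2, and the oligodendrocyte markers of the class also differed, at 759 CPM before and 1654 CPM after processing. The mix of clusters again differed: the cluster led by IL6R and VAV1 held 57 of 59 pre-processed but 20 of 379 post-processed nuclei. Within it NKAIN2 stood at 3339 CPM before and 4105 CPM after processing. NCKAP5 stood at 802 and 422 CPM (11 UMIs after), and MAGI2 at 974 and 499 CPM (13 UMIs after). With classes taken from marker UMIs alone, the microglia-like ratios were 0.10, -0.75 and -0.50. By the same assignment the oligodendrocyte-like ratios were 0.10, -0.07 and 0.12, so NCKAP5 changed sign in both classes and MAGI2 in microglia-like nuclei, where the reported intervals of both included 0.

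**Figure D5:**
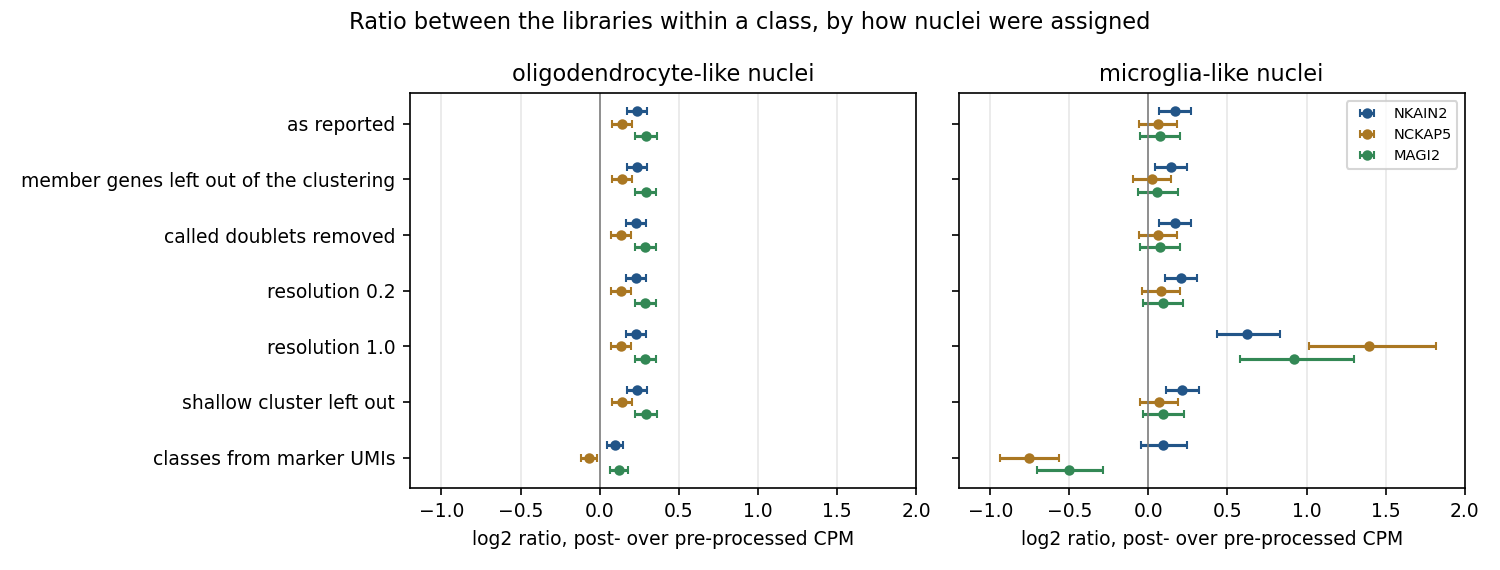
Log2 ratio of post-processed over pre-processed CPM of each gene within oligodendrocyte-like (left) and microglia-like (right) nuclei, for 7 ways of assigning nuclei; points are ratios, bars exact conditional binomial 95% intervals, and the grey line marks no difference. The oligodendrocyte-like ratios stay near 0, whereas those of microglia-like nuclei run from -0.75 to 1.39 for NCKAP5.

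Relatives and partners of the 3 genes had other patterns. Of the sodium pump and NKAIN family, 4 of 15 genes were listed. NKAIN3, a paralog of NKAIN2, was highest in astrocyte-like nuclei at 2171 CPM and stood at 372 CPM in neuron-like and 80.5 CPM in pre-processed oligodendrocyte-like nuclei. In oligodendrocyte-like against neuron-like nuclei 0 of the 4 were 2-fold higher and 4 were lower, as were 27.2% of all genes compared, although NKAIN1 rested on 25 neuronal UMIs and 0 in oligodendrocyte-like nuclei.

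Of the NCK adaptors and actin regulators, 13 of 19 were listed. In oligodendrocyte-like against neuron-like nuclei 3 of 12 were 2-fold higher and 2 lower (23.9% and 27.2% of all genes), with a median log2 ratio of -0.0047 against 0.12 over all genes. The extremes were WIPF1, a partner of WASP proteins (252 against 54.7 CPM, 2.21), and CYFIP2, a subunit of the WAVE complex (225 against 566 CPM, -1.32). Between libraries, 0 of 11 were higher and 2 lower within oligodendrocyte-like nuclei (13.3% of all genes lower), with a median of 0.13 against -0.08 over all genes. Within microglia-like nuclei 0 of 13 were higher and 1 lower (11.8% of all genes lower), with a median of -0.19 against -0.05. NCKAP1L, a haematopoietic WAVE complex subunit, stood at 9.81 CPM before and 405 CPM after processing over all nuclei (5.36), but from 377 to 546 CPM within microglia-like nuclei (0.52, interval 0.10 to 1.0).

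Of the MAGUK scaffolds and MAGI partners, 6 of 21 were listed. In oligodendrocyte-like against neuron-like nuclei 1 was 2-fold higher and 4 were lower (23.9% and 27.2% of all genes), with a median of -1.81 against 0.12 over all genes. MAGI3, the listed paralog of MAGI2, was the reverse of it, at 50.3 CPM in oligodendrocyte-like and 328 CPM in neuron-like nuclei (-2.66, interval -3.54 to -1.98). NLGN1, a synaptic adhesion protein of excitatory synapses, stood at 530 against 7468 CPM (-3.81). NLGN1 was also lower after processing, from 530 to 50.3 CPM within oligodendrocyte-like and from 867 to 92.2 CPM within microglia-like nuclei. SYT1 stood at 674 and 101 CPM before and after processing in the former class and at 1229 and 40.8 CPM in the latter, and its part in the NLGN1 difference was not tested. Between libraries 0 of 5 listed genes were 2-fold higher in either class, and 2 were lower in oligodendrocyte-like nuclei, where ADGRB1 rested on 20 UMIs before and 0 after processing, and 1 in microglia-like nuclei. Of all genes, 4.42% were higher and 13.3% lower in the former class, and 11% and 11.8% in the latter. Over all nuclei 1 of 6 was higher and 2 were lower, against 6 and 3 of 13 for the NCK list and 1 and 2 of 4 for the sodium pump list, with 30.4% of all genes higher and 24.7% lower.

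The genes most like each member were found by Pearson correlation of log2(CPM + 10) over the 9 groups of at least 50 nuclei, among 4493 genes. These groups share 2 libraries, and the oligodendrocyte-like values are the highest for each member. For NCKAP5 the spread also rests on the low levels of neuron-like nuclei (730 CPM) and cluster 10 (657 CPM). The coefficients therefore only describe. Nearest to NKAIN2 were BORCS5 (0.994), SPOCK1 (0.975), SORT1 (0.956), PDE1A (0.941) and AUH (0.933). PDE1A, a calcium-dependent phosphodiesterase, reached 9328 CPM in oligodendrocyte-like nuclei of the pre-processed library and, like NKAIN2, stood at a higher level in cluster 10 (3368 CPM) than in neuron-like nuclei (1175 CPM). Among the 5 genes nearest to NCKAP5 were PLEKHG1 (0.994), CNKSR3 (0.993), ANXA9 (0.989) and ALCAM (0.988). PLEKHG1 stood at 2214 CPM in pre-processed oligodendrocyte-like, 865 in astrocyte-like and 95.3 in neuron-like nuclei. Nearest to MAGI2 were MAP4K5 (0.982), SUGCT (0.965), NEO1 (0.962), FBXO32 (0.961) and ST6GALNAC3 (0.958). NEO1, a receptor for netrins and repulsive guidance molecules, stood at 1526 CPM in pre-processed oligodendrocyte-like and 213 in neuron-like nuclei. None of the members was among the 5 nearest of another: NCKAP5 and MAGI2 correlated at 0.876, NKAIN2 and MAGI2 at 0.790, and NKAIN2 and NCKAP5 at 0.529.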

How the data were processed

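The deposited tables hold raw UMI counts per gene and barcode, made with DRAGEN per the submitters' processing notes; neither its version nor a genome build was given in the sources used here. The listed genes include 9847 of the 21300 protein-coding genes of the RefSeq ARS-UI_Ramb_v3.0 table, so CPM is relative to the listed genes. Barcodes with at least 100 detected genes were clustered jointly in Seurat 5.3.0 (R 4.3.3; log-normalized to 10000, 2000 variable genes, 30 principal components, resolution 0.5). A cluster took a class name from at least 3 markers raised 1.5-fold; it stayed unnamed where another class had more markers among its 10 leading genes, where a non-neuronal candidate held over 1/2 of the mean SYT1 level, or where it was shallow with no own marker among them. The SYT1 and depth conditions were set after seeing the data. Scrublet (scanpy 1.11.5) calls were kept. Sums, intervals (exact Poisson, Clopper-Pearson and conditional binomial, with 0.5 counts added in log2 ratios) and figures were made in Python 3.11.15 (numpy 2.4.6, scipy 1.17.1, pandas 2.3.3). Ratios were computed for genes with at least 20 UMIs in the groups compared. The calculation of the ratio and its interval was checked on counts simulated with Poisson error only. Those counts had no spread between nuclei or libraries, so coverage of such spread was not tested. UMIs of nuclei in 1 library are not replicates, so no test was made.

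The members, marker lists and gene lists were chosen with earlier results of these data known. Named were the 3 members, the 5 genes most like each (symbols not starting with LOC, at least 200 UMIs), extreme and paralogous genes of the lists, and reference markers; MAGI3, NKAIN3, NLGN1 and NCKAP1L in comparisons where they are not extremes were chosen after their values were seen. Alternatives changed the minimum of detected genes, the scale, the resolution, the class assignment, the doublets and the thinning depth, and leaving out the shallow cluster was added after seeing the data. Some genes that the rule names are not reported here. No sequence is printed, since none was used here.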

Additional observations from a re-analysis of the deposited data

Results flagged for a closer look

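The 411 post-processed barcodes with fewer than 100 detected genes entered no comparison, yet UMIs of all 3 genes were present in them. They held 199 UMIs of NKAIN2, 192 of NCKAP5 and 135 of MAGI2 among 28995 UMIs in all, or 6863, 6622 and 4656 CPM. Their median depth was 64 UMIs. The ratio of NKAIN2 to NCKAP5 was 1.04 (0.846 to 1.27), and the interval includes the 0.999 of post-processed oligodendrocyte-like nuclei. It also includes the ratios of other post-processed groups. The shallow microglia-like cluster 5 held 391 UMIs of NKAIN2 and 337 of NCKAP5. The 27 nuclei with both marker sets held 2664 and 2279. Summed oligodendrocyte markers stood at 3794 CPM in these barcodes, microglial markers at 9795 CPM and neuron markers at 1793 CPM, of which SYT1 gave 34.5 CPM. The pre-processed library had 0 barcodes of this kind, and what these barcodes contained was not tested.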

How the results depend on the processing

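Of 189 alternative values, 113 stayed within the counting error of the reported value, 74 moved beyond it and 2 changed sign from a value whose interval excluded 0. Values follow in the order NKAIN2, NCKAP5, MAGI2. With classes from marker UMIs, the oligodendrocyte-like ratio between libraries was 0.10, -0.068 and 0.12, and without a minimum of detected genes 0.10, -0.073 and 0.12; NCKAP5 changed sign in both. The microglia-like ratio was -0.75 (NCKAP5) and -0.50 (MAGI2) with marker classes, -0.74 and -0.50 without a minimum, and 0.62, 1.39 and 0.92 at resolution 1.0. The ratio of oligodendrocyte-like to neuron-like nuclei was 1.70, 4.48 and 2.0 with marker classes and equally without a minimum, and 1.98 (NKAIN2) and 4.57 (NCKAP5) at resolution 0.2. With the median gene ratio as scale, all nuclei gave 0.20, 1.05 and 0.092, oligodendrocyte-like nuclei 0.14, 0.041 and 0.19, and microglia-like nuclei 0.29 (NKAIN2) and 0.18 (NCKAP5). That scale moved the genes at least 2-fold higher over all nuclei from 30.4% to 17.1%, and the lower ones from 24.7% to 34.7%.

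Post-processed UMI shares held by microglia-like nuclei were 24.8%, 12.8% and 13.3% at resolution 1.0, 26.7%, 13.1% and 13.7% with marker classes, 26.3%, 13% and 13.6% without a minimum, 53.8%, 43.6% and 45.0% without the shallow cluster, and 47.3% (NCKAP5) at a minimum of 200 genes. Those held by oligodendrocyte-like nuclei were 71.2%, 84.2% and 83.5% with marker classes, 69.6%, 81.8% and 81.5% without a minimum, and 51.9% (NCKAP5) at 200 genes. Pre-processed shares of oligodendrocyte-like nuclei were 13.4%, 32.1% and 14.3% with marker classes and without a minimum. Neuron-like nuclei held 66.2%, 26.4% and 63.6% at resolution 0.2, 65.9%, 20.3% and 58.6% with the members left out of the clustering, 65.5%, 19.9% and 58.2% at 200 genes, and 76.1%, 26.7% and 66.7% with marker classes and without a minimum. Detection in post-processed oligodendrocyte-like nuclei was 100%, 98.2% and 100% at 500 UMIs and 100% for all 3 unthinned. The cause of these shifts was not tested. No paired analysis was possible because each condition had 1 library. The depth of the post-processed library, with a median of 667.5 UMIs per nucleus, limits what its per-nucleus values can show.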
